A study of Mus musculus with 8 samples.

Results

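The NF-kappaB subunits and inhibitors followed here are 10 mouse genes, found by gene symbol among the 55681 non-control probes of an Agilent mouse expression array. They were the subunit genes Nfkb1, Nfkb2, Rel, Rela and Relb, and the inhibitor genes Nfkbia, Nfkbib and Nfkbie. The others were Nfkbiz, which encodes a nuclear relative of the inhibitors, and the feedback regulator Tnfaip3. The array carried 14 probes for the 10 genes, out of 36315 gene names in all. Expression was measured once per RNA sample on 8 one-colour Cy3 arrays in 4 groups of 2. The groups were '18-81' cells with a miR-125b duplex, '18-81' cells with the control duplex miR-Neg, 70Z/3 cells with the miR-125b duplex, and 70Z/3 cells with miR-Neg. Each cell type is a single mouse line: '18-81' is a pre-B line that Abelson virus transformed, and 70Z/3 comes from a pre-B lymphoblast leukaemia. All 4 groups received 10 nM of a duplex with a lipid reagent, fresh medium at 8 h and RNA extraction at 48 h, in 2 independent experiments. There were no untransfected cells, and no agent that activates NF-kappaB is named in the labels. The stated aim was to find targets of miR-125b.

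NF-kappaB is a family of transcription factors that work as pairs of subunits. In resting cells, inhibitor proteins of the IkappaB family hold the pairs in the cytoplasm. When receptors signal, a kinase complex marks the inhibitors for destruction, the pairs enter the nucleus, and several of the genes they switch on, Nfkbia and Tnfaip3 among them, shut the signal off again. The alternative branch of the pathway acts through the precursor made by Nfkb2 and its partner Relb, and matters for B cell survival. The 70Z/3 line has long been used in work on this pathway, because stimulation with lipopolysaccharide induces kappa light chain transcription in it. In human lymphoma cells, TNFAIP3 has been described as a target of miR-125b.

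The microRNA that the duplex delivers is shown because its seed sets which messages it can pair with. Its mature sequence, with the seed (bases 2 to 8) in capitals, is encoded identically at chr9:41581940-41581961 and chr16:77646279-77646300 on the plus strand (RefSeq, GRCm38.p6).
mmu-miR-125b-5p: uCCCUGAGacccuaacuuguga
The array holds no measure of the mature microRNA, so its delivery has no check in these values.

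The promoters are shown because several of these genes are known to be regulated by NF-kappaB itself. RefSeq promoter windows (GRCm38.p6) were at hand for 7 of the 10 genes, all but Nfkb1, Relb and Nfkbiz. The 250 bases before each transcript start were searched on both strands for the kappaB consensus motif. At least 1 match was found for 5 of the 7 genes (Nfkb2, Rel, Nfkbia, Nfkbie and Tnfaip3), and 8.2% of the 27025 genes with a window held one. No match was found before the starts of Rela and Nfkbib. The windows of 4 genes follow, 5′ to 3′ on the strand of the gene, with matches in capitals. They lie at chr19:46304487-46304736 (plus strand) for Nfkb2, chr12:55492648-55492897 (minus) for Nfkbia, chr17:45555450-45555699 (plus) for Nfkbie and chr10:19015411-19015660 (minus) for Tnfaip3.
Nfkb2: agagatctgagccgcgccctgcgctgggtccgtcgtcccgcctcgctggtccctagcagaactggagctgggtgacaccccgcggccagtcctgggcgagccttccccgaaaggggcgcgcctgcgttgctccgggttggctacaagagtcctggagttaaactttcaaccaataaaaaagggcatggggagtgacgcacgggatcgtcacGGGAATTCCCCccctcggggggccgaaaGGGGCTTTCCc
Nfkbia: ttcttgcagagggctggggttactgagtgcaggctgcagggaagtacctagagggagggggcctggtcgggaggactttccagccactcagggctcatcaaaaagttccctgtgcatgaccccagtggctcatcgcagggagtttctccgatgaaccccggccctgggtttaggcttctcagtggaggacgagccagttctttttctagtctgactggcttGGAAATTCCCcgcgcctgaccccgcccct
Nfkbie: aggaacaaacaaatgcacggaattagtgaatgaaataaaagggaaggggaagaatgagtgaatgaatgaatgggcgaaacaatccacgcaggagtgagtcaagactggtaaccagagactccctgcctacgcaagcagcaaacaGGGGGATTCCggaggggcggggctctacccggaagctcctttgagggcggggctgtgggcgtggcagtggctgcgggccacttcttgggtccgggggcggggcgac
Tnfaip3: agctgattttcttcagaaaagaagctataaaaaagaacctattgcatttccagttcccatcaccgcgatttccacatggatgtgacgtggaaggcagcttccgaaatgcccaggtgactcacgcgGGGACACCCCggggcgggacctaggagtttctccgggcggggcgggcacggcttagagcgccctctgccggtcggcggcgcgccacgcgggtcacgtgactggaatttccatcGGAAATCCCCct
In the Nfkb2 window 2 matches overlap, starting 39 and 38 bases before the transcript start, and another starts 11 bases before it. The Nfkbia match starts 29 bases before the start, the Nfkbie match 106 bases before it, and the nearer of the 2 Tnfaip3 matches 12 bases before it. The table lists 2 further starts of Nfkb2, each with 1 match, and a further start of Tnfaip3 with no match. A match is a run of letters and was not tested as a binding site.

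The values below rest on the array probes. The probes of 3 genes that come up most often, each 60 bases long, are given here 5′ to 3′ with their mm9 positions from the scanner files.
Nfkb1, chr3:135254550-135254609, minus strand: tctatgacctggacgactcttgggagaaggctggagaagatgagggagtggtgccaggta
Nfkb2, chr19:46386146-46386285, plus strand: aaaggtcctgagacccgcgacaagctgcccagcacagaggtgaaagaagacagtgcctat
Nfkbia, chr12:56590945-56591440, minus strand: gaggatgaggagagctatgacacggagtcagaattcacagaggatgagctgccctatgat
The Nfkb2 and Nfkbia probes span 140 and 496 bases of genome, so each crosses a splice junction. Nfkb1, which makes the p105 precursor of p50, has a second probe starting at base 4056 of the transcript, against 2747 for the one shown. Relb had 2 probes, Nfkbib 3, and the other 7 genes 1 each. Levels are log2 intensities relative to the 75th percentile of the same array, the brightest probe stands for its gene, and levels of different genes are not compared.

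Each array had 38.0 to 45.1% of its probes well above background. Replicate 2 of 70Z/3 with miR-Neg was the dimmest, with a 75th percentile of 337.7 intensity units, while the other 7 lay between 504.0 and 725.1. In 70Z/3 this percentile was higher with miR-125b than with miR-Neg in both replicates (701.5 and 504.0 against 512.8 and 337.7), so brightness and duplex cannot be told apart there. Of 13 markers of B cell precursors, 11 were above background on all 8 arrays, and Rag1 and Rag2 were not above it on any. The summed log2 level of these markers was 8.52 to 8.66 in '18-81' and 9.51 to 10.62 in 70Z/3. Of 3 erythroid markers on the array, 0 were above background. Among 7 T cell markers, 6 to 7 were above background in '18-81' and 4 in 70Z/3, and their summed log2 level was 3.62 to 4.38 in '18-81' and 5.04 to 7.05 in 70Z/3. For 7 myeloid markers the counts were 4 to 5 in '18-81' and 4 to 7 in 70Z/3, and of 6 stromal markers 2 to 3 were above background on each array. The part of these marker levels in the differences between the lines was not tested. Each group also fills 1 column of the slide, and these cannot be told apart. In bulk RNA, fewer expressing cells and less RNA per cell cannot be told apart either.

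All 9 of the NF-kappaB genes other than Rel were measured well above background in at least 1 group. Rel, which encodes the c-Rel subunit of lymphoid cells, was not well above background on any of the 8 arrays. Only 15 bases of its probe have a genome position in the files, so a low level of the transcript and a failing probe cannot be told apart. Nfkbiz, an inducible nuclear IkappaB protein, was above background on 7 arrays and not on replicate 2 of 70Z/3 with miR-Neg.

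The subunit Rela, which carries a transactivation domain, stood at 4.89 and 5.53 in '18-81' with miR-125b, 4.77 and 5.21 in '18-81' with miR-Neg, 5.19 and 5.22 in 70Z/3 with miR-125b, and 5.56 and 5.75 in 70Z/3 with miR-Neg. The 70Z/3 miR-Neg arrays were the highest, and the other 3 groups overlapped. Nfkb2, the p100 precursor of p52, was at 1.64 and 2.33 in '18-81' with miR-125b, 1.87 and 1.95 in '18-81' with miR-Neg, 2.52 and 2.35 in 70Z/3 with miR-125b, and 1.97 and 1.42 in 70Z/3 with miR-Neg. Here 70Z/3 with miR-125b lay above the other groups, which overlapped with each other.

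Relb, the usual partner of p52, was at 1.77 and 2.23 in '18-81' with miR-125b, 2.02 and 2.53 in '18-81' with miR-Neg, 1.62 and 2.05 in 70Z/3 with miR-125b, and 1.45 and 0.91 in 70Z/3 with miR-Neg. Its 70Z/3 miR-Neg arrays were below all others, and the remaining neighbours in this order overlapped. Nfkb1 was at 0.63 and 0.45 in '18-81' with miR-125b, 1.04 and 0.01 in '18-81' with miR-Neg, 2.09 and 0.85 in 70Z/3 with miR-125b, and 1.85 and 0.62 in 70Z/3 with miR-Neg. Every pair of neighbouring groups overlapped, and the replicates of 3 of the 4 groups lay more than 1 log2 unit apart, with replicate 2 the lower.

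Among the inhibitors, Nfkbia (IkappaB alpha) was at 3.43 and 4.22 in '18-81' with miR-125b, 3.56 and 4.21 in '18-81' with miR-Neg, 3.79 and 4.63 in 70Z/3 with miR-125b, and 3.86 and 4.33 in 70Z/3 with miR-Neg. All 4 groups overlapped, and replicate 2 was the higher in each. Nfkbib (IkappaB beta) kept to a narrow band, at 3.34 and 3.36 in '18-81' with miR-125b, 3.43 and 3.22 in '18-81' with miR-Neg, 3.58 and 3.43 in 70Z/3 with miR-125b, and 3.28 and 3.31 in 70Z/3 with miR-Neg. Nfkbie (IkappaB epsilon) was at 0.56 and 0.27 in '18-81' with miR-125b, 0.54 and 0.78 in '18-81' with miR-Neg, 0.97 and 1.17 in 70Z/3 with miR-125b, and 0.65 in both 70Z/3 miR-Neg arrays. The 70Z/3 miR-125b arrays were the highest for Nfkbie.

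Tnfaip3 encodes A20, a ubiquitin-editing enzyme that damps the pathway upstream of the kinases. It was at -0.79 and 0.66 in '18-81' with miR-125b, -0.75 and 0.54 in '18-81' with miR-Neg, -0.08 and 0.95 in 70Z/3 with miR-125b, and 0.52 and 0.99 in 70Z/3 with miR-Neg. All neighbouring groups overlapped, and replicate 2 was again the higher in each group. Nfkbiz was at -2.45 and -3.15 in '18-81' with miR-125b, -3.17 and -2.52 in '18-81' with miR-Neg, -1.98 and -2.11 in 70Z/3 with miR-125b, and -1.93 and -4.55 in 70Z/3 with miR-Neg, the last of these below background.

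**Figure D1:**
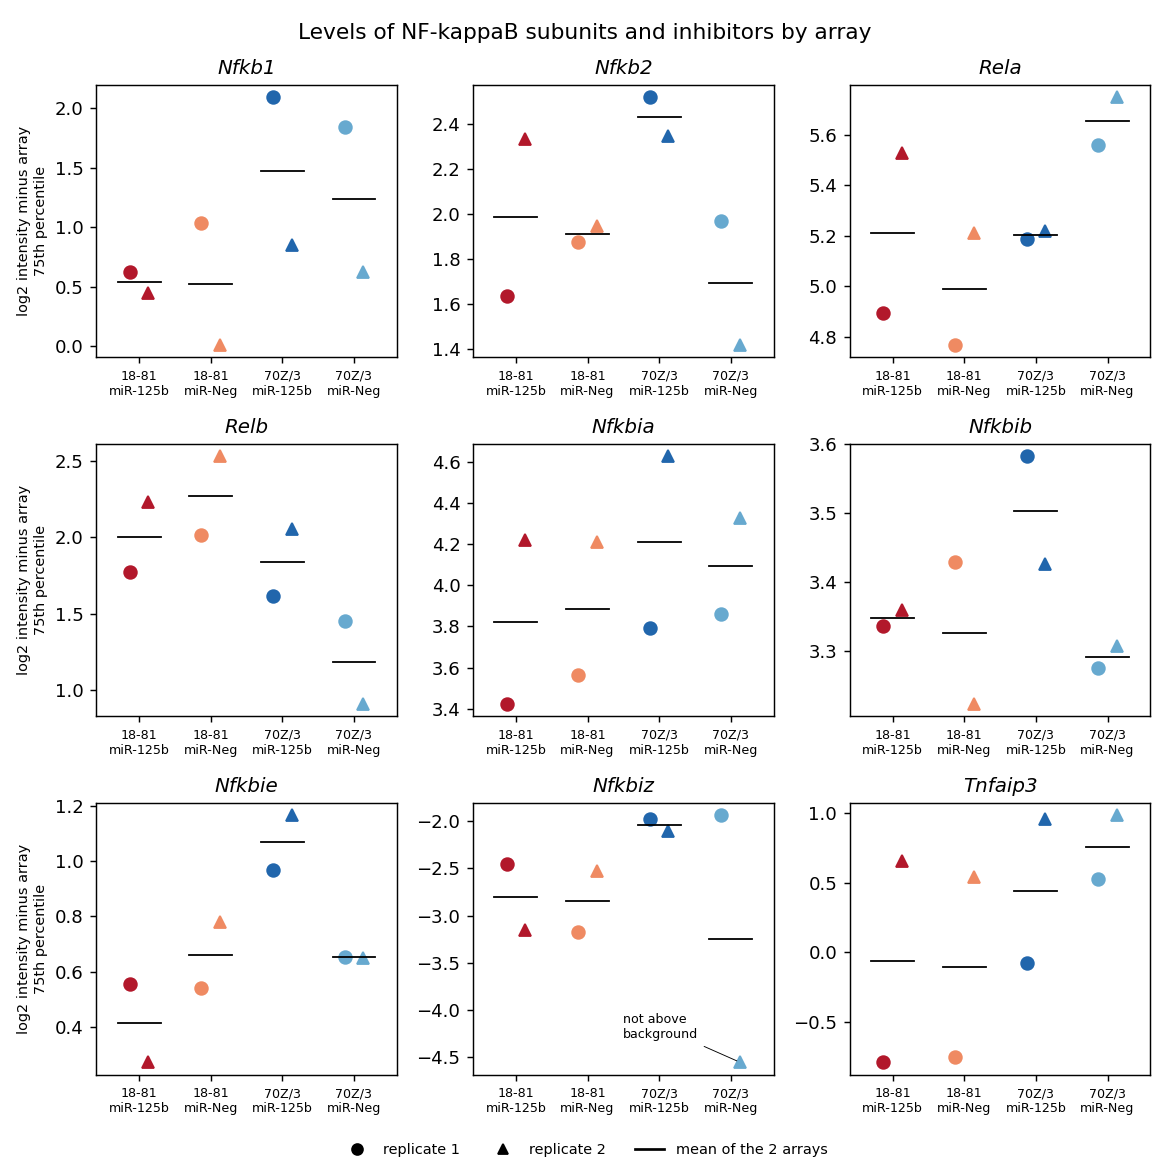
Levels of the 9 measured genes, 1 panel a gene. The y axis is log2 intensity minus the array's 75th percentile, each point is an array (circle, replicate 1, triangle, replicate 2) and each bar the mean of the 2 arrays of a group. Nfkbia and Tnfaip3 have replicate 2 above replicate 1 in all 4 groups, and Nfkb1 has it below.

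The first question was what miR-125b did to these genes. In 70Z/3 cells the alternative-pathway genes Nfkb2 and Relb and the inhibitors Nfkbib and Nfkbie were higher on both miR-125b arrays than on both miR-Neg arrays, and Rela was lower, but none of these differences passed the test. The differences were 0.74 ± 0.34 for Nfkb2 (1.67-fold), 0.65 ± 0.35 for Relb (1.57-fold), 0.42 ± 0.27 for Nfkbie, 0.21 ± 0.26 for Nfkbib and -0.45 ± 0.32 for Rela (log2, miR-125b minus miR-Neg, ± SE of the model, n = 2 arrays each). In '18-81' cells no gene of the 9 had separate arrays, and the differences were between -0.27 for Relb and 0.22 for Rela.

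Tested with limma across 18785 genes, 0 of the 9 genes passed an adjusted p of 0.05 in '18-81' or in 70Z/3, where 0% of all genes passed. At an unadjusted p under 0.05, 0 of the 9 passed in either line. Of all genes, 0.602% were higher and 0.623% lower at that level in '18-81', and 2.78% higher and 3.09% lower in 70Z/3. Nfkb2 in 70Z/3 came closest among the 9, with a 95% interval from -0.04 to 1.52 and an unadjusted p of 0.0612 (adjusted p = 0.774, limma). A term for the replicate number within each line takes out the difference between the 2 experiments. With it, the unadjusted p in 70Z/3 was 0.0247 for Nfkb2 and 0.0496 for Rela (adjusted p = 0.214 and 0.235, limma). Of all 18785 genes, 3985 had an unadjusted p under 0.05 in that fit. A missed threshold does not show equal levels.

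Separate arrays of this kind were common in 70Z/3. Arrays that did not overlap were found for 4 of 9 genes in the higher direction, where 14.9% of all genes had them, and for 1 of 9 in the lower direction, where 22.7% did. In '18-81' the counts were 0 of 9 in both directions, against 7.76% of all genes higher and 5.13% lower. Without the dim miR-Neg array, the difference was 0.46 ± 0.38 for Nfkb2 and 0.39 ± 0.40 for Relb.

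The replicates gave the following differences between miR-125b and miR-Neg. In 70Z/3, Nfkb2 differed by 0.55 in replicate 1 and 0.93 in replicate 2. For Relb the values were 0.17 and 1.14, so replicate 2, which holds the dim control array, carried most of its mean. Nfkbie gave 0.32 and 0.52, Nfkbib 0.31 and 0.12, Nfkb1 0.25 and 0.23, and Rela -0.37 and -0.53. Nfkbia gave -0.07 and 0.30, so its replicates differed in sign. Tnfaip3 gave -0.60 and -0.03, and its mean difference of -0.31 ± 0.62 had a 95% interval from -1.75 to 1.12. On both pairs of arrays, 5 of the 9 genes were higher with miR-125b in 70Z/3 (24.1% of all genes) and 2 were lower (43.9% of all genes). Nfkbiz gave -0.04 and 2.45, and the second value rests on the control array on which it was not above background. Leaving out that array brought its difference to -0.11 ± 0.44.

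In '18-81' the same differences were 0.13 and 0.32 for Rela and -0.24 and -0.30 for Relb, the 2 genes whose replicates shared a sign. Of all genes in '18-81', 32.2% were higher in both replicates and 19.8% lower. Tnfaip3 gave -0.04 and 0.12, Nfkbia -0.14 and 0.01, Nfkb2 -0.24 and 0.39, and Nfkb1 -0.41 and 0.44. The remaining 3 genes also had replicates of opposite sign. The mean difference for Tnfaip3 was 0.04 ± 0.62, with a 95% interval from -1.39 to 1.47.

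The whole transcriptome was not centred on 0 in 70Z/3. Across all genes the median difference there was -0.13, and the median over the 9 genes was 0.24. In both 70Z/3 replicates, 7 of the 9 genes lay above the median of all genes, all but Rela and Tnfaip3. Of all genes, 33.3% did so. Nfkbia and Nfkbiz cleared the replicate 1 median of -0.076 only narrowly, at -0.069 and -0.043. The replicate 2 value of Nfkbiz rests on the control array on which it was not above background. Quantile normalization moved the median of all genes to -0.01 and that of the 9 genes to 0.38. In '18-81' the median of the 9 was 0.02, against 0.03 for all genes.

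Interferon response genes stood higher with miR-125b on the same 70Z/3 arrays. Of 14 interferon response genes, 13 on each miR-125b array were above background, against 12 and 5 on the miR-Neg arrays, and the 13 tested genes had a median difference of 2.06. Their summed level, on a log2 scale, was 5.80 and 5.55 with miR-125b, against 4.87 and 3.41 with miR-Neg. In '18-81' that summed level was 3.13 and 3.14 with miR-125b, against 2.88 and 3.04 with miR-Neg. Of the 13 interferon genes, 0 passed the adjusted test in 70Z/3 (limma) and 9 had an unadjusted p under 0.05. Some markers of other cell types also moved with the duplex in 70Z/3. For 7 T cell markers the median difference was -0.99, and 0 of the 7 exceeded the -0.13 of all genes. Of 6 myeloid markers tested, 3 exceeded the median of all genes, so the list did not move 1 way. Lyz2 and Mpo were above background on both 70Z/3 miR-125b arrays and on no other. Csf1r was at -0.48 and 0.17 with miR-125b, against 0.93 and 1.58 with miR-Neg. Ctss was at 4.12 and 4.49, against 4.73 and 5.27. The matrix protein gene Sparc, 1 of 2 stromal markers tested, was at 4.25 and 5.38 with miR-125b, against -0.35 and 0.69 with miR-Neg. The other, Vim, did not rise, at 5.53 and 5.26 with miR-125b, against 5.46 and 6.09 with miR-Neg. The part of the interferon response, of these markers and of the dim array in the 70Z/3 differences was not tested.

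**Figure D2:**
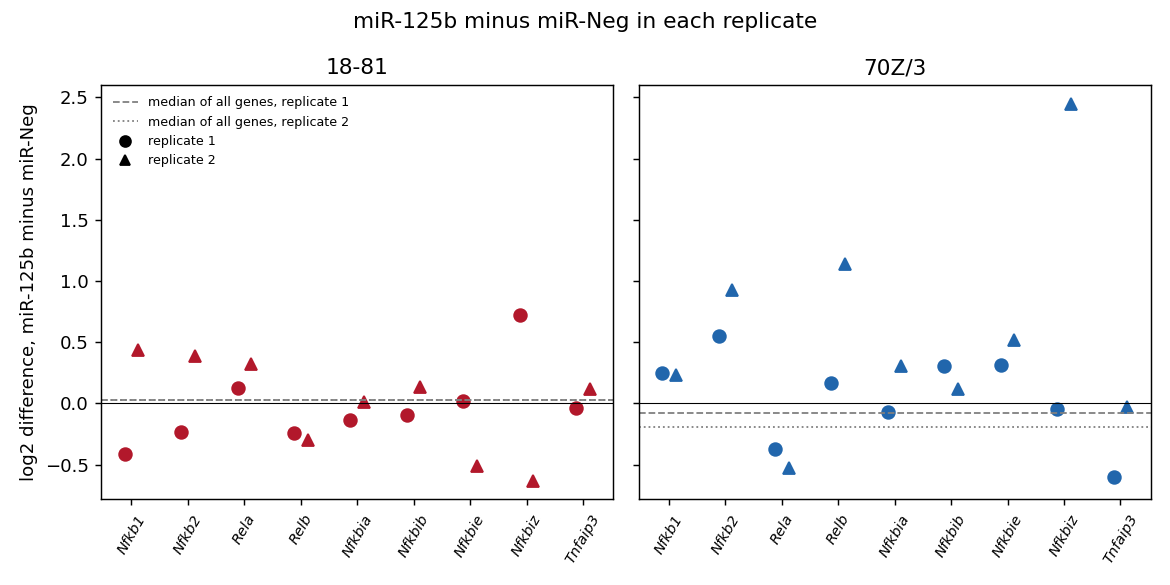
Log2 difference between miR-125b and miR-Neg for each of the 9 genes, with '18-81' on the left and 70Z/3 on the right. Circles are replicate 1, triangles replicate 2, and the grey lines the median of all genes in each replicate. In 70Z/3 Nfkb2 lies at 0.55 and 0.93 and Rela at -0.37 and -0.53, and in '18-81' most genes lie on both sides of 0.

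Averaged over both lines, Nfkb2 differed by 0.41 ± 0.24 (1.33-fold) and Nfkbiz by 0.62 ± 0.53, while the other 7 genes were between -0.14 and 0.19. Of the 9, 0 passed (0% of all genes, limma), and 0 had an unadjusted p under 0.05, as 1.45% of all genes did upwards and 1.26% downwards. The effects of the duplex in the 2 lines were then compared directly. Relb had an effect lower by 0.93 ± 0.50 in '18-81' than in 70Z/3, Rela one higher by 0.67 ± 0.45, and Nfkb2 one lower by 0.66 ± 0.48. Of the 9 differences of effects, 0 passed (adjusted p between 0.941 and 0.966, limma, 0% of all genes called), so no effect was shown to differ between the lines. At an unadjusted p under 0.05 the count was again 0 of 9, against 1.88% of all genes with a higher and 1.34% with a lower effect in '18-81'. With the replicate number as a term within each line, Rela had an unadjusted p of 0.0418 (adjusted p = 0.385, limma). In that fit 2426 of 18785 genes had an unadjusted p under 0.05.

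Known target genes of NF-kappaB were read for the same comparison. Of 16 NF-kappaB response genes tested, a list of textbook targets, 0 passed in either line (limma). At an unadjusted p under 0.05, 1 was higher and 1 lower in 70Z/3, and 0 in '18-81'. Their median difference was 0.25 in 70Z/3 and -0.03 in '18-81'. The largest in 70Z/3 were the chemokines Ccl3 (1.35 ± 0.70) and Cxcl10 (1.23 ± 0.53), the second also induced by interferon, and the chemokine receptor Ccr7 (-1.14 ± 0.61). Without the dim miR-Neg array, Ccl3 differed by 0.57 ± 0.76, Cxcl10 by 1.06 ± 0.68 and Ccr7 by -1.22 ± 0.81. Among 20 kinases and adaptors of the canonical branch, the adaptors Traf6 (-0.88 ± 0.28) and Traf2 (-0.85 ± 0.26) differed most in 70Z/3, and 0 of the 20 passed.

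In the remaining lists 0 genes passed in 70Z/3 as well. The IkappaB relatives Bcl3 and Nfkbid, both nuclear proteins, differed by 0.49 ± 0.33 and 0.40 ± 0.56. In the alternative branch, the kinase Map3k14 (1.13 ± 0.72), its brake Traf3 (-0.74 ± 0.31) and the receptor Cd40 (-0.68 ± 0.34) differed most. Among proteins that work with A20, the largest differences were those of the deubiquitinase Cyld (0.68 ± 0.38), the ligase Itch (-0.58 ± 0.51) and the adaptor Tax1bp1 (0.57 ± 0.41). Among receptors they were Tnfrsf1b (-0.80 ± 0.49), the lipopolysaccharide co-receptor Ly96 (-0.72 ± 0.45) and Tlr4 (-0.27 ± 0.49). Several of these values moved when the dim miR-Neg array was left out. Map3k14 was at -0.03 and -0.36 with miR-125b, against -0.04 and -2.62 with miR-Neg, the last on the dim array. Without that array the sign turned for Map3k14 (-0.16), Nfkbid (-0.10) and Tlr4 (0.27). The difference was smaller for Itch (-0.10), Tax1bp1 (0.16), Tnfrsf1b (-0.21), Ly96 (-0.43) and Bcl3 (0.22), and larger for Cyld (1.22) and Cd40 (-1.14), while Traf3 was at -0.79.

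The second question was how the lines themselves differ. Relb was higher in '18-81' than in 70Z/3, and Nfkb1 and Tnfaip3 were lower, each in all 4 pairs of arrays with the same duplex and replicate number. With Nfkbia, which was also lower in all 4 pairs, that made 1 of 9 genes higher and 3 of 9 lower throughout, against 28.9% of all genes higher and 26.7% lower. With the 4 group means alone, 0 of the 9 genes passed on average over both duplexes, while 31.7% of all genes did, and 0 of 9 passed on the miR-Neg arrays alone, while 21.5% of all genes did (limma). Those shares split into 15.5% higher and 16.2% lower on average, and 9.81% higher and 11.7% lower on the miR-Neg arrays. At an unadjusted p under 0.05, Relb was higher in both comparisons, as were 20.7% and 15.3% of all genes, and 0 of 9 genes were lower, as were 20.5% and 17.5%. Over all 8 arrays, 0 of 9 genes had separate lines in either direction, against 18.5% of all genes higher and 18.2% lower. With the replicate number as a term in the model, which takes out the difference between the 2 experiments, Nfkb1 and Tnfaip3 passed on average over both duplexes, and Relb passed on the miR-Neg arrays. That model called 48% and 36.3% of all genes in these comparisons, so the 2 and 1 of 9 genes called stayed below the share of all genes. Leaving out 1 array at a time with that model kept the Nfkb1 call in 4 of 8 cases, the Tnfaip3 call in 3 of 8 and the Relb call in 3 of 8. The Nfkb1 call was lost without replicate 1 of either 70Z/3 group or without either '18-81' miR-Neg array. The Tnfaip3 call was lost without either 70Z/3 miR-125b array, either '18-81' miR-Neg array or replicate 1 of '18-81' with miR-125b. The Relb call was lost without either 70Z/3 miR-125b array, either '18-81' miR-Neg array or the dim array. For Relb on the miR-Neg arrays, leaving out either array of a miR-125b group gave the same fit, so those cases are not separate checks.

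Nfkb1 was lower in '18-81' by 0.40 to 1.47 over the 4 pairs, and the mean difference was -0.82 ± 0.40 (adjusted p = 0.168) with group means and -0.82 ± 0.21 (adjusted p = 0.0209, limma) with the replicate term. This difference lay between -1.13 and -0.51 with group means and between -1.07 and -0.58 with the replicate term when 1 array was left out. Its other probe gave the same size with less spread. That probe stood at 0.09 and 0.22 in '18-81' with miR-125b, 0.15 and 0.40 in '18-81' with miR-Neg, 1.11 and 0.93 in 70Z/3 with miR-125b, and 1.30 and 0.89 in 70Z/3 with miR-Neg. All 4 arrays of '18-81' were below all 4 of 70Z/3 on it, and its difference of -0.84 ± 0.20 passed without the replicate term when every probe was tested by itself (adjusted p = 0.0144, limma).

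Tnfaip3 was lower in '18-81' by 0.30 to 1.27 over the pairs, with a mean of -0.68 ± 0.44 (adjusted p = 0.288) with group means and -0.68 ± 0.19 (adjusted p = 0.0278, limma) with the replicate term. Leaving out 1 array put it between -1.04 and -0.32 with group means and between -0.88 and -0.48 with the replicate term. The ranges of the 2 lines overlapped on its single probe, from -0.79 to 0.66 in '18-81' and from -0.08 to 0.99 in 70Z/3. Relb was higher by 0.63 ± 0.25 on average (adjusted p = 0.0924 with group means and 0.0508 with the replicate term, limma). On the miR-Neg arrays alone Relb was higher by 1.09 ± 0.35, or 2.13-fold (adjusted p = 0.0627 with group means and 0.0336 with the replicate term, limma). The 2 replicates gave 0.57 and 1.62 for that difference, and without the dim 70Z/3 miR-Neg array it was 0.82 ± 0.40 (adjusted p = 0.249) with group means and 0.59 ± 0.19 (adjusted p = 0.0825, limma) with the replicate term. Its second probe, which overlaps the first in sequence, gave 1.15 ± 0.38.

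Nfkbia was lower in '18-81' in all 4 pairs too, by 0.12 to 0.41, and its mean of -0.30 ± 0.31 did not pass with either model (adjusted p = 0.516 and 0.1, limma). Nfkb2, Rela, Nfkbib, Nfkbie and Nfkbiz each had 3 pairs lower and 1 pair higher in '18-81', with means from -0.06 for Nfkbib to -0.33 for Rela. Rela was at 4.77 and 5.21 in '18-81' and at 5.56 and 5.75 in 70Z/3 on the miR-Neg arrays, which do not overlap. That difference was -0.67 ± 0.32 (adjusted p = 0.196 with group means and 0.0506 with the replicate term, limma). On those arrays 1 of 9 genes lay apart in each direction, Relb above and Rela below, against 25.5% and 29.4% of all genes.

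The probes of Nfkbib did not give one answer. The brightest, starting at base 1084 of the transcript, differed by -0.06 ± 0.19 between the lines, and the probe starting at base 694 by -0.04 ± 0.32. The probe starting at base 1885 was at -1.78 and -1.52 in '18-81' with miR-125b, -1.84 and -1.64 in '18-81' with miR-Neg, -3.48 and -3.34 in 70Z/3 with miR-125b, and -2.97 and -2.48 in 70Z/3 with miR-Neg. All 4 arrays of '18-81' were above all 4 of 70Z/3, and the difference was 1.37 ± 0.21, or 2.59-fold (adjusted p = 0.00133, limma, every probe tested by itself). Which transcript this probe reports was not tested.

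**Figure D3:**
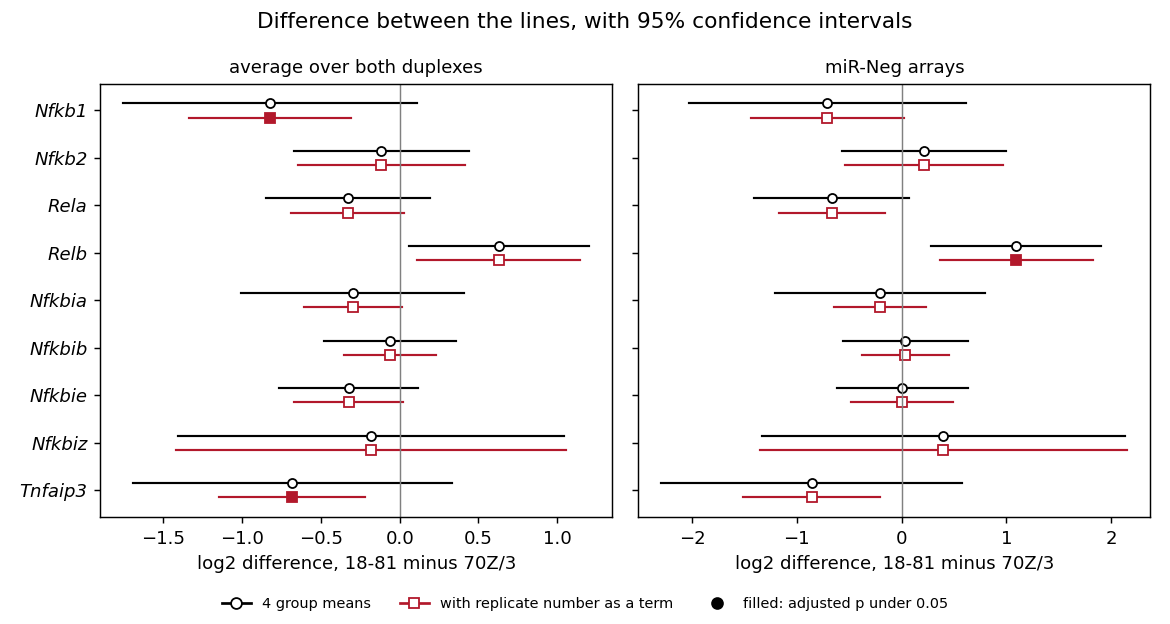
Log2 difference between '18-81' and 70Z/3 for the 9 genes, averaged over both duplexes on the left and on the miR-Neg arrays on the right. Bars are 95% confidence intervals, black circles come from the model with 4 group means, red squares from the model with the replicate number as a term, and filled symbols passed an adjusted p of 0.05. Nfkb1 and Tnfaip3 are filled on the left at -0.82 and -0.68, and Relb on the right at 1.09.

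Around the 9 genes, several genes of the rest of the pathway differed between the lines. The Tlr2 receptor and the chemokine Ccl4 were well above background in 70Z/3 and not in '18-81', and the nuclear IkappaB protein Bcl3 and the immediate early gene Ier3 were far higher in '18-81'. Over 6 lists of pathway genes, 8 of 55 tested genes were higher and 15 lower in '18-81' (limma, average over both duplexes), or 41.8% of them, against 31.7% of all genes. With 1 array left out, each of these 23 genes kept its direction, though the number called changed with the array left out. With the replicate term 14 of the 55 were higher and 20 lower, or 61.8%, against 48% of all genes. Other lists differed between the lines too, with 9 of 11 tested markers of B cell precursors and 5 of 7 T cell markers called.

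Bcl3 binds homodimers of p50 and p52 in the nucleus. It was at 0.87 and 1.01 in '18-81' with miR-125b, 1.08 and 1.34 in '18-81' with miR-Neg, -2.86 and -2.22 in 70Z/3 with miR-125b, and -2.76 and -3.30 in 70Z/3 with miR-Neg. The 2 lines did not overlap, and the difference of 3.86 ± 0.24 was 14.5-fold (adjusted p = 5.69e-06, limma). Its relative Nfkbid differed by -0.26 ± 0.39.

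Among 20 kinases and adaptors of the canonical branch, 2 were higher and 5 lower in '18-81', against 15.5% and 16.2% of all genes. Among the higher was the ubiquitin ligase Traf6 (0.84 ± 0.20). The lower ones were Traf5 (-1.88 ± 0.31), the ligase subunit Btrc (-1.75 ± 0.26), which recognises marked IkappaB proteins, the receptor adaptor Myd88 (-1.42 ± 0.32), the kinase Ripk1 (-1.30 ± 0.35) and the kinase Irak4 (-0.63 ± 0.19). The other 13, the kinase subunits Chuk, Ikbkb and Ikbkg among them, did not pass. With the replicate term the counts were 7 higher and 6 lower, where 48% of all genes were called. That added Chuk (0.81 ± 0.16), Ikbkb (0.55 ± 0.12), Ikbkg (0.57 ± 0.16), Malt1 (0.65 ± 0.18) and Tab1 (0.55 ± 0.12) above and Traf2 (-0.46 ± 0.13) below. Traf6 passed in 6 of 8 cases when 1 array was left out of the model with group means, Ripk1 in 4, Irak4 in 0, and Traf5, Btrc and Myd88 in 8.

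In the alternative branch 2 of 5 tested genes were higher in '18-81' and 0 lower, against 15.5% and 16.2% of all genes. They were Traf3 (1.03 ± 0.22), which keeps the kinase Map3k14 in check, and the BAFF receptor gene Tnfrsf13c (0.78 ± 0.22). Map3k14 itself differed by 1.16 ± 0.51 and did not pass. Among 7 partners of A20, 0 passed, against 31.7% of all genes. The largest differences were Cyld (-0.79 ± 0.27), Tnip1 (-0.54 ± 0.19) and Otulin (0.46 ± 0.23). With the replicate term these 3 passed (adjusted p = 0.0277, 0.0149 and 0.0309, limma), 1 higher and 2 lower, where 48% of all genes were called. Tnfrsf13c passed in 1 of 8 cases when 1 array was left out of the model with group means, and Traf3 in 8.

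Of 5 receptor genes tested, Tlr4 was higher in '18-81' (1.24 ± 0.35), and Ly96, its co-receptor, was lower (-1.49 ± 0.32). Tlr2 was well above background on all 4 arrays of 70Z/3 and on 0 of 4 of '18-81', and was at least 20.7-fold lower in '18-81' (adjusted p = 3.57e-07, limma). Such a bound compares the brighter line with, on each array of the dimmer line, the lowest signal that still counted as above background, or the probe's own signal if higher. Tnfrsf1a, Il1r1 and Cd14 were not above background on any array, so 3 of the 8 listed receptors for the classical triggers were not measured.

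Of 16 response genes, 2 were higher and 8 lower in '18-81', against 15.5% and 16.2% of all genes. Higher were Ier3, at least 15.1-fold, and the adaptor Traf1, at least 2.83-fold, each above background on 4 of 4 arrays of '18-81' and 0 of 4 of 70Z/3. Lower were the chemokines Ccl4, at least 15.8-fold, and Ccl3 (-5.98 ± 0.49), the cytokine subunit Ebi3, at least 21.7-fold, and the chemokine Cxcl10 (-4.52 ± 0.37), a size that includes 2 of 4 arrays of '18-81' on which it was not above background. The chemokine receptor Ccr7 (-2.22 ± 0.43), the caspase inhibitor Cflar (-1.96 ± 0.21), the transcription factor Irf1 (-1.18 ± 0.23) and the survival gene Bcl2l1 (-1.13 ± 0.31) were lower as well. Of 13 interferon response genes, 11 were lower in '18-81' and 0 higher, and Cxcl10 and Irf1 also belong to that response. The replicate term, which called 48% of all genes, gave 2 higher and 10 lower response genes, adding Junb (-0.67 ± 0.16) and Sdc4 (-0.65 ± 0.18). Tlr4 and Bcl2l1 each passed in 3 of 8 cases when 1 array was left out of the model with group means, and the other receptor and response genes called with group means passed in 8. The part of interferon signalling in these differences was not tested.

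**Figure D4:**
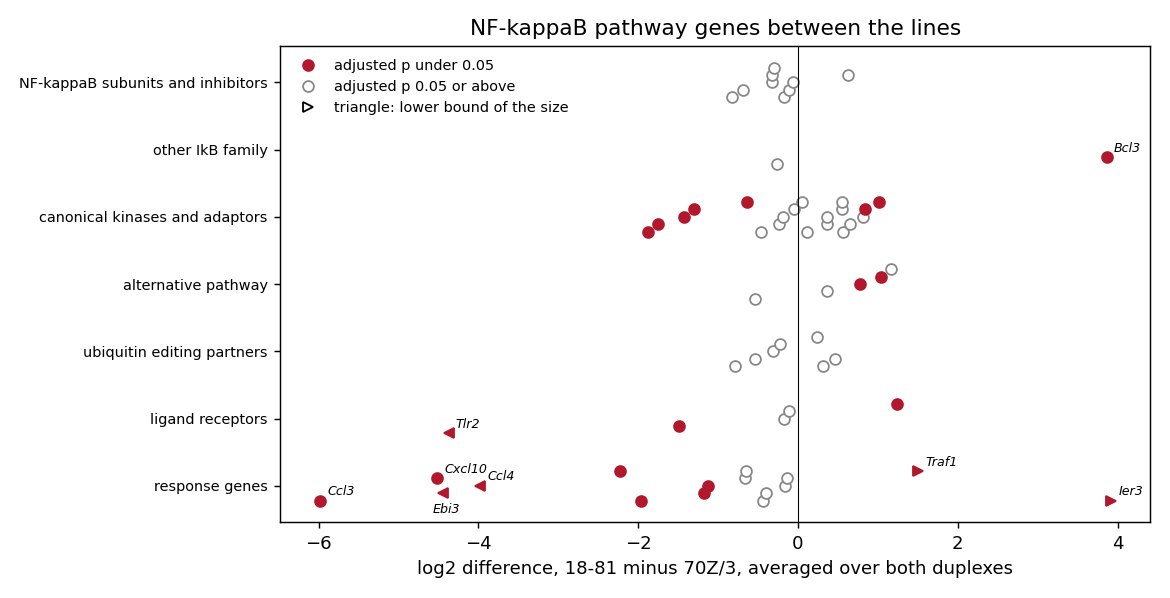
Log2 difference between '18-81' and 70Z/3, averaged over both duplexes, for each tested gene of the NF-kappaB subunits and inhibitors and of 6 further pathway lists (rows). Each point is a gene, filled red where the adjusted p was under 0.05, and the vertical spread within a row only separates points. Triangles stand at the lower bound of the size for genes not above background on any array of 1 line. The 9 subunit and inhibitor genes lie between -0.82 and 0.63, while Bcl3 is at 3.86 and Ccl3 at -5.98.

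The 2 experiments were also compared, a comparison added after the replicate values had been seen. Tnfaip3 and Nfkbia were higher in replicate 2 than in replicate 1 in all 4 groups, as was Rela (38.1% of all genes), and Nfkb1 was lower in all 4 (12.4% of all genes). In a model with group and replicate number, 3 of 9 genes passed, against 26% of all genes (limma). Of all genes, 19.9% were called higher and 6.04% lower in replicate 2. The arrays of replicate 2 also lie in another row of the slide, so experiment and slide row cannot be told apart.

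Tnfaip3 differed by 1.45 in '18-81' with miR-125b, 1.29 in '18-81' with miR-Neg, 1.03 in 70Z/3 with miR-125b and 0.46 in 70Z/3 with miR-Neg (replicate 2 minus replicate 1). Its mean of 1.06 ± 0.19 was a 2.08-fold difference (adjusted p = 0.0272, limma). Nfkbia differed by 0.80, 0.65, 0.84 and 0.46 in the same order of groups, with a mean of 0.69 ± 0.13, or 1.61-fold (adjusted p = 0.0276, limma). Both encode negative regulators that NF-kappaB is known to induce. Other such genes did not follow them. Among the tested response genes, Tnf, Birc3, Bcl2l1, Icam1, Irf1 and Junb were lower in replicate 2 in all 4 groups (12.4% of all genes). Only Ier3 was higher in all 4 (38.1% of all genes), and it was not above background in 70Z/3. The part of NF-kappaB activity in these differences was not tested. Nfkb1 differed by -0.18, -1.03, -1.24 and -1.23, with a mean of -0.92 ± 0.21 (adjusted p = 0.0323, limma).

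The Tnfaip3 and Nfkbia calls depended on the scale, and the Nfkb1 call held on the 3 scales compared here. The median of all genes differed by 0.21 between the replicates with the 75th percentile, by 0.04 after quantile normalization and by -0.05 with the percentile taken over probes above background everywhere. Of the genes called, 76.7% were higher in replicate 2 with the first scale, 47.5% with the second and 29.2% with the third. Tnfaip3 was at 1.06, 1.03 and 0.80 on the 3 scales (adjusted p = 0.0272, 0.0398 and 0.0611, limma), and Nfkbia at 0.69, 0.41 and 0.43 (adjusted p = 0.0276, 0.112 and 0.0953, limma). Nfkb1 was at -0.92, -0.97 and -1.18 (adjusted p = 0.0323, 0.0493 and 0.0367, limma). Rela was higher in replicate 2 in all 4 groups on the first scale, but its mean was 0.32 there and -0.04 after quantile normalization. With 1 array left out the sizes stayed between 0.93 and 1.25 for Tnfaip3, 0.64 and 0.76 for Nfkbia and -1.16 and -0.81 for Nfkb1. Leaving out either array of a group gave the same fit for this comparison, so the 8 cases hold only 1 separate fit per group. Of the 9 genes, 0 or 1 was then called, the 1 being Nfkbia without either miR-125b array of 70Z/3 (adjusted p = 0.0494, limma). In the other 6 of 8 cases 0 of all 18785 genes passed (limma), while 5836 to 7540 had an unadjusted p under 0.05.

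The replicates differed more on the brighter Nfkb1 probe than on the other, which was higher in replicate 2 in both '18-81' groups and lower in both 70Z/3 groups. With the mean of both probes, the Nfkb1 difference between replicates was -0.48 ± 0.17 (adjusted p = 0.084, limma). The brighter probe minus the downstream one gave 0.23 in replicate 2 and 0.54 in replicate 1 of '18-81' with miR-125b, and -0.39 and 0.89 in the same order in '18-81' with miR-Neg. In 70Z/3 it gave -0.07 in replicate 2 and 0.99 in replicate 1 with miR-125b, and -0.27 and 0.55 with miR-Neg. That difference was lower in replicate 2 in every group. The same held for Nfkbib, where the probe at base 694 minus the probe at base 1084 was -2.06 and -2.02 in replicate 2 of '18-81' with miR-125b and miR-Neg, against -1.55 and -1.34 in replicate 1, and -1.99 and -2.24 in replicate 2 of 70Z/3, against -1.40 and -1.41 in replicate 1. Over 1062 transcripts with probes at least 1000 bases apart, the median difference, upstream minus downstream, was lower in replicate 2 in 3 of the 4 groups, by smaller amounts. It was -1.24 and -1.31 in replicate 2 of '18-81' with miR-125b and miR-Neg, against -1.25 and -1.23 in replicate 1, and -1.26 and -1.25 in replicate 2 of 70Z/3, against -1.13 and -1.05 in replicate 1. Relb, whose probes start only 51 bases apart, also had a lower upstream minus downstream difference in replicate 2 in every group. It was -0.74 and -0.83 in replicate 2 of '18-81' with miR-125b and miR-Neg, against -0.66 and -0.76 in replicate 1. In 70Z/3 it was -0.74 and -1.02 in replicate 2, against -0.65 and -0.69 in replicate 1. The part of RNA integrity in these values was not tested.

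**Figure D5:**
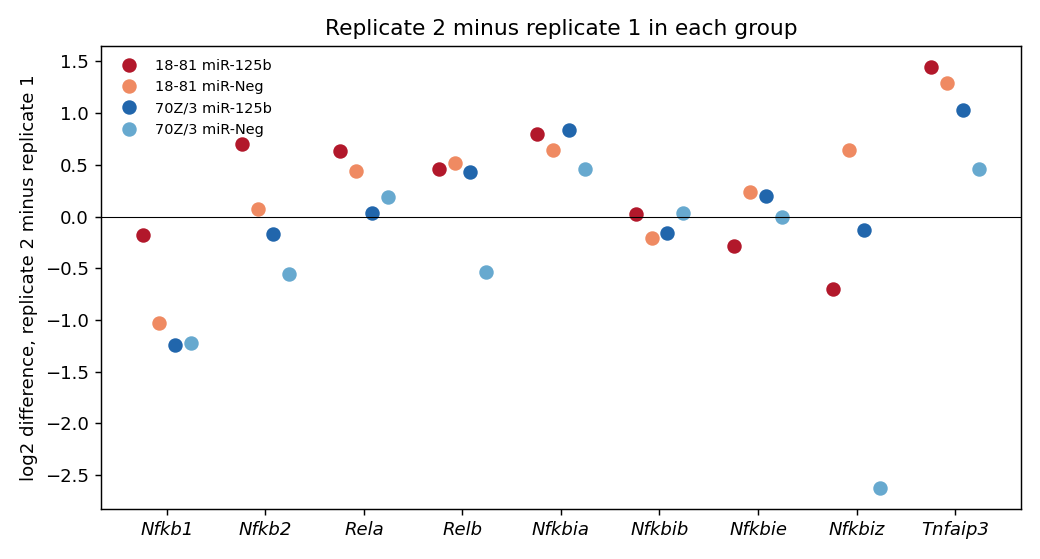
Log2 difference between replicate 2 and replicate 1 in each of the 4 groups (colours) for the 9 genes. Tnfaip3 lies between 0.46 and 1.45 and Nfkbia between 0.46 and 0.84, above 0 in all groups, and Nfkb1 between -1.24 and -0.18. The point at -2.62 for Nfkbiz uses the array on which it was not above background.

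Nfkbia and Tnfaip3 were the closest pair among the 9 genes in how they varied over the 8 arrays once the mean of each line was taken out (Pearson r = 0.92). The Nfkb2 and Relb pair had r = 0.78, and Nfkb1 and Nfkbia -0.81. The arrays share a line, a duplex and an experiment, so these are descriptions with no test. Over all measured genes, those most like Nfkbia on this measure were Ankrd24, Ankrd37 and Itm2b (r = 0.995, 0.993 and 0.991). Those most like Tnfaip3 were Bach1, Rcor1 and Zfp46 (r = 0.995 each). For Nfkb2 they were the predicted genes Gm8483 (0.98) and Gm5223 (0.979) and the interferon alpha gene Ifna12 (0.975).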

How the data were processed

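Per the file headers, the authors read each of the 8 arrays of 1 slide into intensity values using Agilent software (Feature Extraction 10.7.3.1), with probe positions on mm9. In the authors' series table the deposited intensity values are linear and normalized, by a method not given in the sources used here. That table served as an alternative.

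Outlier spots were dropped, repeated spots averaged, and log2 intensity set relative to each array's 75th percentile. Names came from RefSeq (GRCm38.p6) by accession or symbol. Genes were tested if, in 1 group or more, both arrays had a probe well above background, and the brightest probe stood for its gene (18785 genes). limma 3.58.1 in R 4.3.3 fitted 4 group means to all 8 arrays with Benjamini-Hochberg adjustment at 0.05 and 4 residual degrees of freedom, after being tested on simulated data.

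Same-numbered replicates deviated together (r from 0.374 to 0.648 in 6 pairs of groups) and the series describes 2 independent experiments, which is where the pairing comes from. Separate cultures within an experiment are not stated, so p-values measure the spread between these samples.

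All 10 genes are named, with every pathway gene that passed between the lines or was among the 3 largest differences of its list, except 1 that is not reported here. The 3 genes most like Nfkb2, Nfkbia and Tnfaip3 were taken by Pearson r. Genes and lists were chosen with earlier results of these data known. Alternatives covered background, scaling, filter, probes, trend, replicate term and left-out arrays. Figures used matplotlib 3.10.9.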

Additional observations from a re-analysis of the deposited data

Results flagged for a closer look

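For 2 genes, both '18-81' replicates lay on one side of 0 with miR-125b and both 70Z/3 replicates on the other. Relb gave -0.24 and -0.30 in '18-81', against 0.17 and 1.14 in 70Z/3, and the difference of effects was -0.93 ± 0.50. Rela gave 0.13 and 0.32 in '18-81', against -0.37 and -0.53 in 70Z/3, and the difference of effects was 0.67 ± 0.45. When this difference was tested across all genes, neither passed (adjusted p = 0.941 for both, limma). No group had enough arrays for a test of single outlying samples.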

How the results depend on the processing

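In the 4 comparisons of duplexes, 0 of 9 genes passed under every alternative run. Between the lines on the miR-Neg arrays the count became 1 with quantile normalization, the percentile over detected probes and normexp background (Relb each time). It was also 1 with the authors' series table, an intensity trend and the replicate block (Relb), and 1 with every probe by itself (Nfkbib). Those settings called 3886 to 6821 of all 18785 genes, and 5404 of 25308 probes. On average over both duplexes it became 1 with normexp background (Relb) and 1 with the mean of probes (Nfkb1). It became 2 with every probe by itself (Nfkb1 and Nfkbib) and 2 with the replicate block (Nfkb1 and Tnfaip3). Of all 18785 genes, 6204, 6203 and 9019 were called with normexp, the mean of probes and the block. Of 25308 probes, 8000 were called. Among the 9 genes the block changed no other call, while in the pathway lists it raised 23 of 55 calls to 34. Between replicates the 3 calls became 1 with the percentile over detected probes (Nfkb1) and 2 with quantile normalization and with the series table (Nfkb1 and Tnfaip3). They became 2 with the mean of probes (Nfkbia and Tnfaip3). In these settings 1968 to 4371 of all 18785 genes were called. The calls became 4 with no filter, where 12427 of 36315 genes were called. That added Rel, which was not above background on any array. They became 4 with every probe by itself (Nfkbib added), where 5770 of 25308 probes were called. Leaving out 1 array gave 0 to 0 calls in the comparisons of duplexes, 0 to 1 between the lines on the miR-Neg arrays (1, Nfkbiz, without replicate 1 of 70Z/3 miR-Neg), 0 to 0 on average and 0 to 1 between replicates. With the block as well, it gave 0 to 2 in both comparisons of the lines. Without the dim array, 4 of 9 genes lay above and 2 below the remaining 70Z/3 miR-Neg array (29.8% and 31.9% of all genes), and the 4 could not change, since they lay above both. The counts over all genes moved by more than 1.5 times in these settings: between lines on the miR-Neg arrays 4047 became 1866 with only genes above background on all arrays and 6821 with the block, on average 5955 became 3509 and 9019, and between replicates 4880 became 1968 with quantile normalization, 2078 with the percentile over detected probes, 1981 with the series table and 12427 with no filter. In 70Z/3, 0 became 1 with normexp background and with the block within each line. Leaving out 1 array gave up to 9 genes in '18-81', 2 in 70Z/3, 5 over both lines, 5 for the difference of effects and 0 to 3252 between replicates.

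With the mean of probes the sign turned for Nfkbib in 70Z/3 (-0.042), over both lines (-0.02), in the difference of effects (0.044) and between lines on average (0.42), and for Nfkb1 in '18-81' (-0.053). With normexp background it turned between lines for Nfkbiz on the miR-Neg arrays (-0.27) and Nfkbib on average (0.02). Between replicates it turned for Nfkb2 with quantile normalization (-0.11), the percentile over detected probes (-0.25), normexp (-0.033) and the series table (-0.11), Rela with quantile normalization (-0.043) and the series table (-0.034), Relb with the percentile over detected probes (-0.04), and Nfkbie with that percentile (-0.22) and normexp (-0.001), with 0 in the series table. The cause was not tested. Leaving out 1 array turned the sign of these genes. The range with miR-125b against miR-Neg in '18-81' was Nfkb1 -0.50 to 0.53, Nfkb2 -0.27 to 0.42, Rela -0.10 to 0.54, Nfkbia -0.46 to 0.33, Nfkbib -0.082 to 0.12, Nfkbiz -0.31 to 0.40, Tnfaip3 -0.68 to 0.76. The range in 70Z/3 was Nfkb1 -0.38 to 0.86, Nfkbia -0.30 to 0.53, Nfkbiz -0.11 to 2.51, Tnfaip3 -0.83 to 0.20. The range over both lines was Nfkb1 -0.18 to 0.44, Rela -0.27 to 0.044, Nfkbia -0.18 to 0.23, Nfkbiz -0.033 to 1.28, Tnfaip3 -0.50 to 0.22. The range for the difference of effects was Nfkb1 -0.84 to 0.40, Nfkbia -0.60 to 0.24, Nfkbiz -2.47 to 0.15, Tnfaip3 -0.37 to 1.08. The range between lines on the miR-Neg arrays was Nfkb2 -0.06 to 0.49, Nfkbia -0.53 to 0.12, Nfkbib -0.068 to 0.14, Nfkbie -0.11 to 0.13, Nfkbiz -0.91 to 1.71. The range between lines on average was Nfkb2 -0.29 to 0.059, Nfkbiz -0.84 to 0.47. The range between replicates was Nfkb2 -0.22 to 0.20, Nfkbie -0.029 to 0.15. With the replicate block and 1 array left out, the sign turned on the miR-Neg arrays for Nfkb2 (-0.16), Nfkbib (-0.038 and -0.051), Nfkbie (-0.019 and -0.128) and Nfkbiz (-0.881 and -0.501). On average it turned for Nfkb2 (0.072 and 0.113) and Nfkbiz (0.458, 0.268 and 0.009).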
